A study of Mus musculus with 4 samples.

Results

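The interferon-inducible GTPases described here are 9 genes chosen by name, of 23235 genes in the deposited tables. They are 4 immunity-related GTPases (IRG: Irgm1, Irgm2, Igtp and Iigp1) and 5 guanylate-binding proteins (GBP: Gbp2, Gbp3, Gbp6, Gbp7 and Gbp9), and a row was found for each. RNA was sequenced from acute myeloid leukaemia carrying NRASG12V and the Mll-AF9 fusion, grown in SCID/Beige mice. SCID mice lack mature T and B cells and the beige mutation impairs natural killer cells. Of 4 libraries, 1 came from leukaemia with NRASG12V on, and 1 each from leukaemia after 48 h, 72 h and 96 h of doxycycline, which switches NRASG12V off in this model. The off groups thus carry the same fusion and differ from the on group by the drug as well as by the oncogene, and no library combines doxycycline with NRASG12V on. The labels do not state the harvested tissue, the promoter of the transgene, the number of leukaemia clones, or if any libraries share a mouse.

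IRG and GBP proteins are large GTPases that cells make in response to interferons. Gamma interferon acts through its receptor and the kinases Jak1 and Jak2, and then through factors such as Irf1. Type I interferon acts through a complex that holds Irf9, which binds the interferon-stimulated response element. The proteins gather on vacuoles that hold bacteria or parasites and help to destroy them, and in mice the IRGM proteins (Irgm1, Irgm2 and Igtp) regulate the other IRG proteins. In macrophages and other myeloid cells they are a standard readout of interferon exposure.

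The promoters are shown before the levels, because the response element is the site that this complex binds. The RefSeq promoter table (GRCm38.p6) matched 6 of the 9 members by symbol, namely Irgm1, Irgm2, Igtp, Gbp2, Gbp3 and Gbp7. Each lower-case run below gives the 120 bases before the annotated start, 5′ to 3′ on the gene's strand, and capitals mark matches to GAAANNGAAA, the core of the interferon-stimulated response element, on either strand.
Irgm1 (chr11:48871421-48871540, minus strand): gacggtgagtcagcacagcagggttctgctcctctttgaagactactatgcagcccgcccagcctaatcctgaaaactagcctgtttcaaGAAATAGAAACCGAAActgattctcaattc
Irgm2 (chr11:58214857-58214976, plus strand): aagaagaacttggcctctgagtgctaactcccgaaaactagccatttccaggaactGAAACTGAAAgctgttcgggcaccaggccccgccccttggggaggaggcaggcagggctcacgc
Igtp (chr11:58199436-58199555, plus strand): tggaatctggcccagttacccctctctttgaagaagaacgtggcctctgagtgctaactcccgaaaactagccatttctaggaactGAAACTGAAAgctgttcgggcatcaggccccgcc
Gbp2 (chr3:142620543-142620662, plus strand): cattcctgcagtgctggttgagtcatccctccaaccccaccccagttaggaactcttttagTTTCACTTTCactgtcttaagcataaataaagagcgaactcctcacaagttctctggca
Gbp3 (chr3:142559924-142560043, plus strand): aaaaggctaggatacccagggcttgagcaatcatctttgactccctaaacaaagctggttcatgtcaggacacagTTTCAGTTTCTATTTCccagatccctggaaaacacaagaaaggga
Gbp7 (chr3:142530216-142530335, plus strand): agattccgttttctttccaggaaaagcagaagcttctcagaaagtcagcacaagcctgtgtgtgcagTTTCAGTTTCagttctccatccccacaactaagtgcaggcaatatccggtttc
Within the 250 bases before the start, all 6 genes had at least 1 such match, against 2.98% of 32851 promoters of the same length. The matches began at -30 and -24 in Irgm1, -64 in Irgm2, -34 in Igtp, -59 in Gbp2, -45 and -39 in Gbp3, and -53 in Gbp7. The pairs in Irgm1 and in Gbp3 overlap. The second start listed for Gbp3 had no match. TTCNNNGAA, the core of the gamma activated site, a site of the gamma interferon response that reads the same on both strands, was found in 7.02% of all promoters and in Irgm2 (at -75), Igtp (at -45) and Gbp7 (at -106 and -87). Both motifs together were found in 3 of these 6 genes and in 0.332% of promoters. In Irgm2 and Igtp 2 bases lie between the gamma activated site core and the response element core. These 2 genes are neighbours on chromosome 11, and their windows share a run of 55 identical bases. Gbp7, Gbp3 and Gbp2 lie in a row of GBP genes on chromosome 3. A match describes letters and is no measured binding site.

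**Figure D1:**
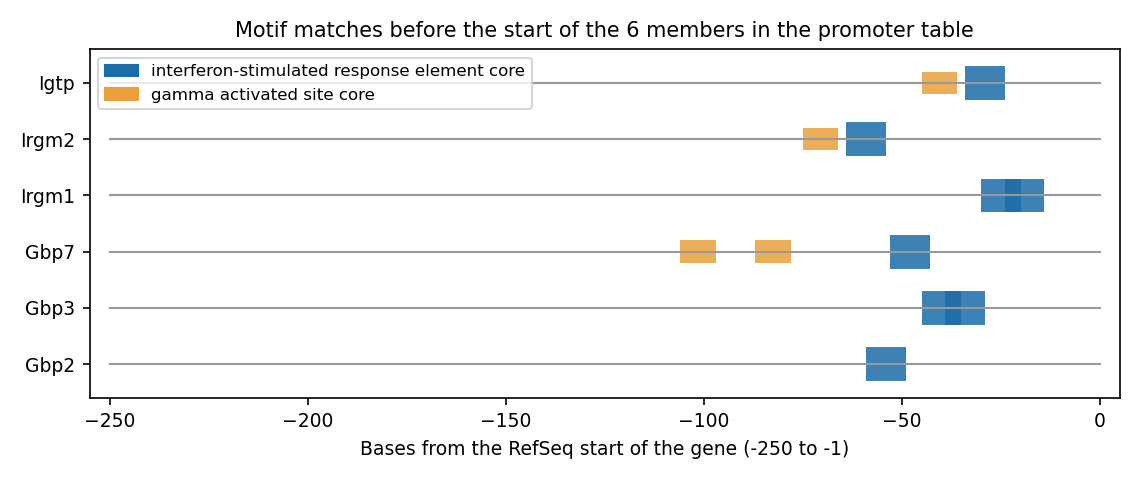
Positions of motif matches in the 250 bases before the RefSeq start of 6 members, with the distance from the start in bases on the x axis and a row for each gene. Blue blocks, the response element core, lie within 64 bases of the start in all 6 rows; orange blocks, the gamma activated site core, appear in Igtp, Irgm2 and Gbp7 only.

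Levels are given as FPKM, fragments divided by transcript length and by the mapped total, on the scale of the 48 h table. Changes are log2((off FPKM + 1)/(on FPKM + 1)) within the table of each time, a scale that understates the change of low genes. The leukocyte gene Ptprc (CD45) had 69.9 FPKM on and 64.5 to 101 FPKM off, and the early myeloid gene Mpo 1025 FPKM on and 124 to 139 FPKM off. Nras, the mouse gene of the switched oncogene, was at 24.5 FPKM on and 17.1 to 19.4 FPKM off (limma, Benjamini-Hochberg adjusted p = 0.128); reads of a human transgene need not all be assigned to it. All 20 erythroid genes of a marker list rose, and their summed level went from 7999 FPKM on to between 25084 and 40462 FPKM off. In whole samples such as these, a change in the number of cells of a type cannot be told apart from a change in RNA per cell.

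Nearly the whole set was higher in the off libraries than in the on library. At 48 h, 7 of 9 members were at least 2-fold higher than in the on library, and all 9 were above it. On the log2(FPKM + 1) scale Irgm2 and Igtp had the largest changes at each time, and Gbp3 alone ended below its on level. As a ratio of FPKM, Gbp6 (4.97) and Iigp1 (4.96) were ahead of Irgm2 (4.59) and Igtp (4.12) at 48 h. At 72 h 4 and at 96 h 6 of 9 members were at least 2-fold higher, and none was 2-fold lower at any time, where 4.85%, 5.76% and 8.16% of all genes tested were. Of all genes reaching 1 FPKM, 5%, 6.61% and 7.39% were at least 2-fold higher at 48 h, 72 h and 96 h. The members' median changes were 1.38, 0.83 and 1.21, beside medians of -0.14, -0.07 and -0.06 over all genes tested. The 3 comparisons share the on library, and no group has a second library against which to check these counts. Iigp1 and Gbp6 were under 1 FPKM in the on library and passed that minimum through off libraries alone, Gbp6 only at 48 h. With a pseudocount of 5 FPKM in place of 1, the counts were 3, 2 and 3 of 9.

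**Figure D2:**
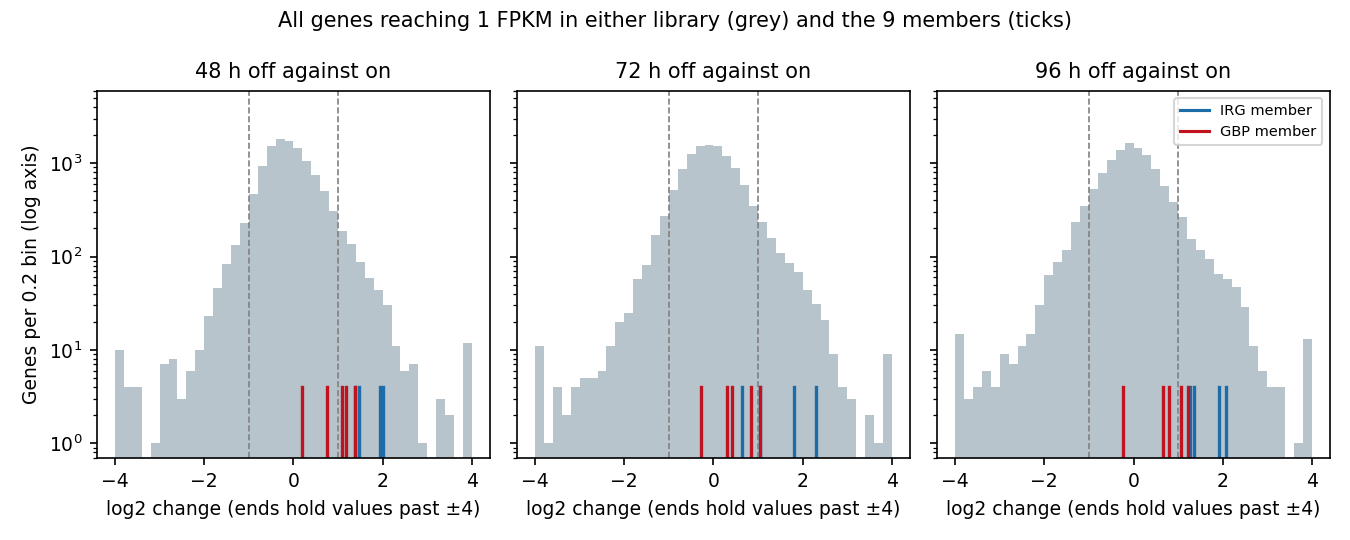
Histograms of the log2 change (x axis) of all genes reaching 1 FPKM in either library, with the number of genes on a log axis (y), at 48 h, 72 h and 96 h; ticks mark the 9 members and dashed lines 2-fold. Blue IRG and red GBP ticks lie mostly right of 0, with 7, 4 and 6 of 9 past the right dashed line.

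Taken as 3 samples of the off state, the off libraries were tested against the on library with limma over 12015 genes. Of the 9 members, 6 rose (Benjamini-Hochberg adjusted p under 0.05), namely Irgm1, Irgm2, Igtp, Iigp1, Gbp7 and Gbp9, and 0 of 9 fell. Among all genes tested, 11.8% rose and 15.1% fell. Iigp1 and Gbp6 were under 1 FPKM in the on library and entered the test through off libraries, which favours a rise. Of this pair, Iigp1 passed. In this fit the differences between times are the spread, and the single on library is given the same variance. Whether the off libraries are separate animals is not stated, so the spread behind the p-values may be technical. Tested without the 1 FPKM minimum, over 23235 genes, 0 of 9 members passed, with 5 at an unadjusted p under 0.05.

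Irgm2, an IRGM regulator that sits on the Golgi, had the largest fitted change of the members. Its on level was 5.10 FPKM, and the 48 h, 72 h and 96 h libraries held 23.4, 29.0 and 24.7 FPKM. Every off library was at least 4.59 times the on library, and 72 h was the highest. The fitted log2 change was 2.13 (95% interval 1.68 to 2.58; limma, Benjamini-Hochberg adjusted p = 0.000985). Its neighbour Igtp, also called Irgm3, an IRGM regulator of the endoplasmic reticulum and lipid droplets, was the most abundant member in each off library. The on library held 9.75 FPKM of Igtp and the off libraries 40.1, 36.8 and 39.7 FPKM. The off levels lay close together and were at least 3.78 times the on level. The fitted change was 1.89 (1.47 to 2.31; limma, adjusted p = 0.00104). Of the 50-base stretches in the transcripts of Irgm2 and Igtp, 7.77% and 11.8% also occur in another gene, mainly in each other, so some reads may be divided between them.

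Irgm1, the IRGM protein linked to autophagy and to mitochondria, was the most abundant member in the on library at 9.80 FPKM, close to Igtp. It stood at 27.1 FPKM at 48 h, 15.8 FPKM at 72 h and 25.2 FPKM at 96 h. The 72 h library was the nearest to the on library, at 1.62 times its level, against 2.77 and 2.57 times at the other times. Irgm1 rose over the 3 times by 1.10 on the log2 scale (0.44 to 1.76; limma, Benjamini-Hochberg adjusted p = 0.0256). Iigp1, or Irga6, an effector that coats pathogen vacuoles, was the lowest IRG gene. Its level was 0.803 FPKM on and 3.99, 2.80 and 3.74 FPKM off, values that rest on about 40 reads on and about 227, 144 and 221 reads off. As a ratio of FPKM these were 4.96, 3.48 and 4.66 times the on level, beside 4.59, 5.69 and 4.85 times for Irgm2. The fitted change was 1.31 (0.85 to 1.78; limma, adjusted p = 0.00385).

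**Figure D3:**
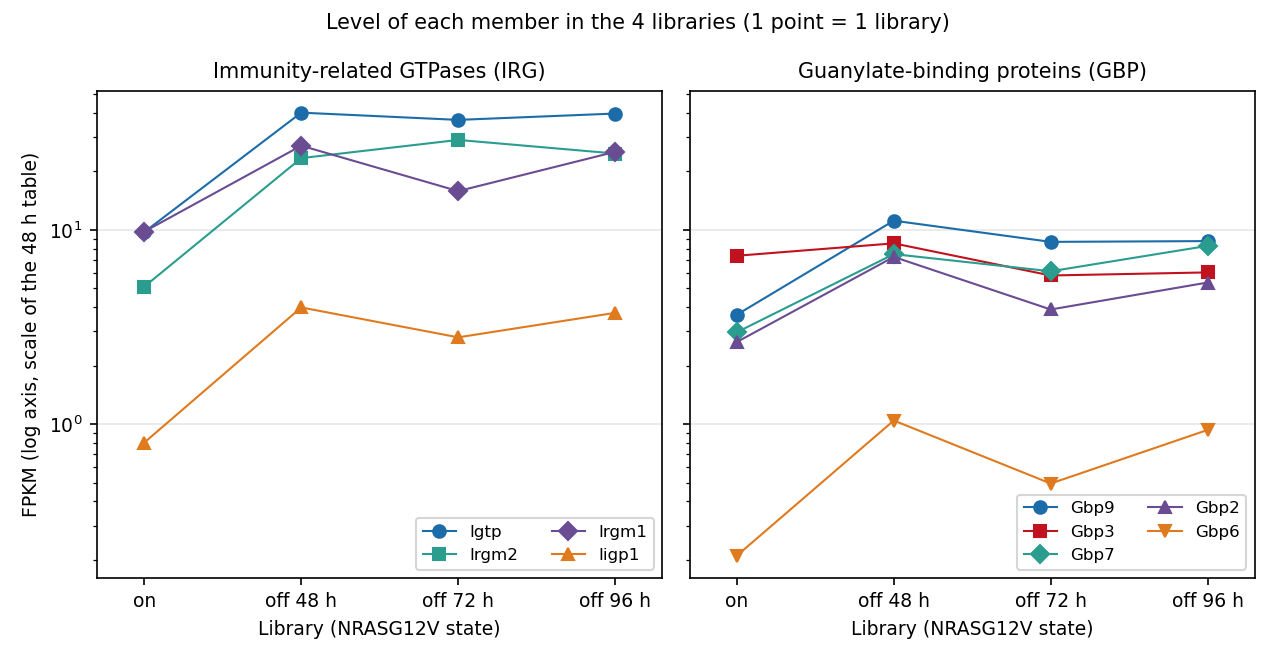
FPKM (log axis, y) of the 9 members in the 4 libraries (x), IRG genes left and GBP genes right; each point is 1 library. The 4 IRG lines step up from on to 48 h and stay up, while the red line of Gbp3 ends at 6.04 FPKM, under its on level of 7.36 FPKM.

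Of the 5 GBP genes, Gbp7 and Gbp9 rose. Gbp9 was at 3.66 FPKM on, and the off libraries held 11.2, 8.67 and 8.76 FPKM, with 48 h highest and every off library more than 2 times the on level. It rose by 1.17 (0.70 to 1.64; limma, Benjamini-Hochberg adjusted p = 0.0061). Gbp7, which takes part in oxidative and autophagic defence, was at 2.97 FPKM on and at 7.50, 6.12 and 8.28 FPKM off. It was highest at 96 h and rose by 1.05 (0.58 to 1.53; limma, adjusted p = 0.00913). Of the 50-base stretches of Gbp7, 12.7% are shared with another gene.

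Gbp2, a membrane-anchored GBP that is recruited to vacuoles and bacteria, was at 2.65 FPKM on. Its off levels were 7.26, 3.89 and 5.36 FPKM. All lay above the on library, but the 72 h library by only 1.47 times. The fitted change of 0.80 (0.17 to 1.43) did not pass (limma, Benjamini-Hochberg adjusted p = 0.0624), and was 0.99 without the 72 h library. Gbp6 was the lowest member in every library, at 0.210 FPKM on and 1.04, 0.494 and 0.934 FPKM off. That is about 9 reads on and about 53, 23 and 49 reads off. These were 4.97, 2.35 and 4.44 times the on level, while its fitted change of 0.58 on the log2(FPKM + 1) scale did not pass (limma, adjusted p = 0.0768). Without the 72 h library Gbp6 had a fitted change of 0.72, and with a pseudocount of 0.1 FPKM an adjusted p of 0.0455 (limma). The assignment of its reads is uncertain, since 70.7% of its 50-base stretches occur in another gene, among them Gbp10 and Gbp4.

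Gbp3 differed from the rest in direction. Only Irgm1 and Igtp were more abundant in the on library, where Gbp3 had 7.36 FPKM, and it stood at 8.52, 5.82 and 6.04 FPKM off. It lay above the on library at 48 h and below it at 72 h and 96 h, by changes of 0.19, -0.29 and -0.25. The fitted change was -0.12 (-0.65 to 0.41; limma, Benjamini-Hochberg adjusted p = 0.735), with an interval inside 2-fold either way. That interval assumes that the single on library varies like the off libraries. Fitted without the 1 FPKM minimum, it ran from -1.06 to 0.82, which includes a 2-fold fall. Gbp3 sits between Gbp7 and Gbp2 in the gene row and, as shown above, has a pair of overlapping response element cores before its first start. Only 3.75% of its 50-base stretches occur in another gene.

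**Figure D4:**
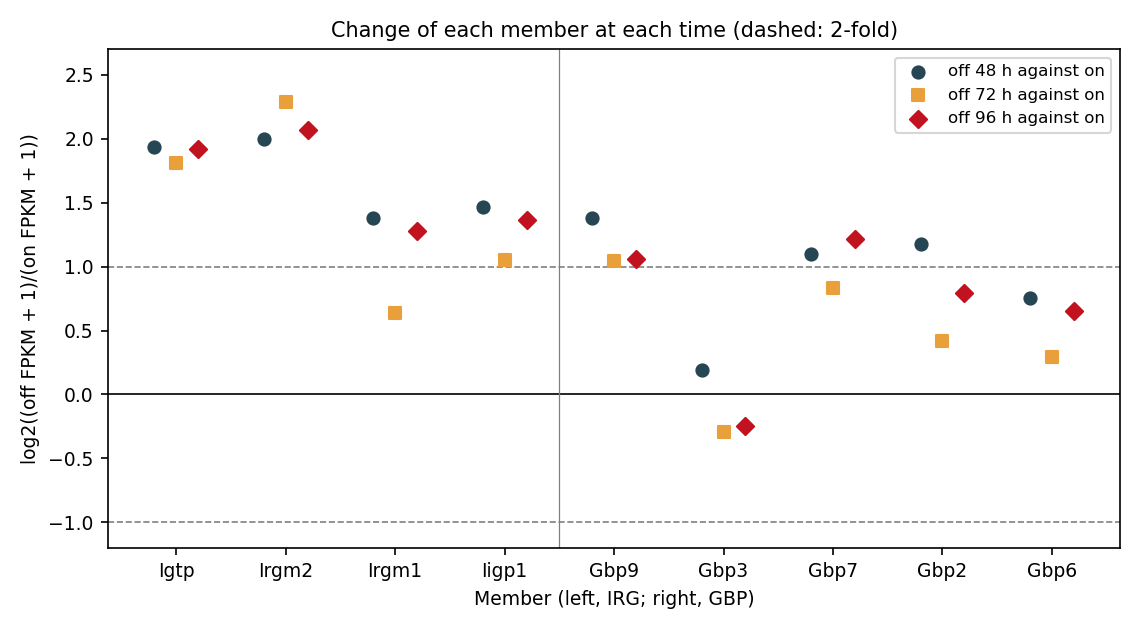
log2((off FPKM + 1)/(on FPKM + 1)) of each member (y) at 48 h (circles), 72 h (squares) and 96 h (diamonds), IRG genes left and GBP genes right (x); dashed lines mark 2-fold. Irgm2 and Igtp lie between 1.81 and 2.29 at every time, and Gbp3 crosses 0.

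Across the off times most members were lowest at 72 h, some of them by little. Gbp9 stood at 8.67 FPKM at 72 h and 8.76 FPKM at 96 h, and Irgm1 at 15.8 and 25.2 FPKM. For 8 of 9 members, Irgm2 being the exception, the 72 h library was the lowest of the 3 off libraries, as it was for 18.5% of all genes tested. For 7 of 9 the 48 h library was the highest, against 28% of all genes. These orders rest on the common scale set through the on library. The order among members was stable at the ends. Iigp1 and Gbp6 were the lowest pair in every library, and Igtp, Irgm1 and Irgm2 took the top 3 places in each off library. In the on library Gbp3 stood above Irgm2. With 1 library each, no spread is available to separate neighbours in these orders.

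Related GTPases outside the set came from a list of 20 names, of which 19 had a row. Of 10 reaching 1 FPKM, 5 rose and none fell (limma, Benjamini-Hochberg), with a median fitted change of 0.61 against -0.08 over all genes tested. Over all genes tested, 11.8% rose and 15.1% fell. Gbp8 went from 0.991 FPKM to 7.23, 6.18 and 6.94 FPKM, a fitted change of 1.96 that was near those of Irgm2 and Igtp (limma, adjusted p = 0.000985). Mx2, an antiviral dynamin-like GTPase (1.0), Gbp1, listed as Gbp2b in RefSeq (0.97), Gbp4 (0.94) and Gbp5, a partner of inflammasomes (0.75), rose too. These 5 were under 1 FPKM in the on library, so they entered the test through off libraries, which favours a rise. Among all genes tested that were under 1 FPKM there, 289 of 773 rose and 0 fell. None of the other 5 of this list, all at 1 FPKM or more in the on library, passed. Among all genes at that level, 1126 of 11242 rose and 1814 fell. Ifi47, an IRG protein also called Irg47, was the most abundant of this list, at 12.7 FPKM on and 15.5, 12.1 and 16.9 FPKM off. Its fitted change of 0.20 did not pass (limma, adjusted p = 0.518), nor did those of Gm12250 (0.48), Gm5431 (0.29), 9930111J21Rik1 (0.26) and Mx1 (0.09). Gbp10, Gbp11, Tgtp1, Tgtp2, Gm12185, Gm4951, F830016B08Rik, 9930111J21Rik2 and Gvin1 stayed under 1 FPKM in every library.

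Genes of interferon signalling were read at the RNA level only, from ligand to factor. Of 19 interferon genes, 14 were listed at 0 in all 4 libraries, including Ifnb1, and none reached 1 FPKM. Ifng was listed at 0 in the on library and stood at 0.177, 0.195 and 0.298 FPKM off, about 4, 4 and 7 reads. Ifnk had 0.0792 FPKM in the on library alone, and Ifna13, Ifne and Ifnz had values only at 72 h, of at most 0.0969 FPKM. The receptor chain Ifngr1, which binds gamma interferon, fell from 128 FPKM to 78.3, 74.6 and 63.7 FPKM. Its fitted change was -0.83 (limma, Benjamini-Hochberg adjusted p = 0.0225), a call that was lost without the 72 h library (fitted change -0.85). Ifngr2 (-0.63), Jak1 (0.33) and Jak2 (0.26) did not pass. Irf9, itself an interferon target, rose from 17.0 FPKM to 43.8, 34.1 and 41.5 FPKM (1.17; limma, adjusted p = 0.00641). It was lowest at 72 h among the off libraries, as most members were. Of all 24 receptor and signal genes, 5, 3 and 5 were at least 2-fold higher at 48 h, 72 h and 96 h. At least 2-fold lower were 0, 1 and 1. Over all genes tested, 5%, 6.61% and 7.39% were higher, and 4.85%, 5.76% and 8.16% lower. Irf7 went from 8.20 FPKM to 55.1, 26.5 and 43.9 FPKM, and Usp18 from 1.54 FPKM to 14.9, 8.17 and 13.3 FPKM. Irf1, which acts on GBP promoters, had a fitted change of 0.42 (adjusted p = 0.242, limma), the class I regulator Nlrc5 0.28 and the feedback inhibitor Socs1 -0.74 (adjusted p = 0.0595). Irf8, a myeloid factor that also serves interferon responses, fell by 0.85 (limma, adjusted p = 0.0342). That call was lost without the 72 h library (fitted change -0.81) and with the median change of all genes set to 0 (limma, adjusted p = 0.0730).

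**Figure D5:**
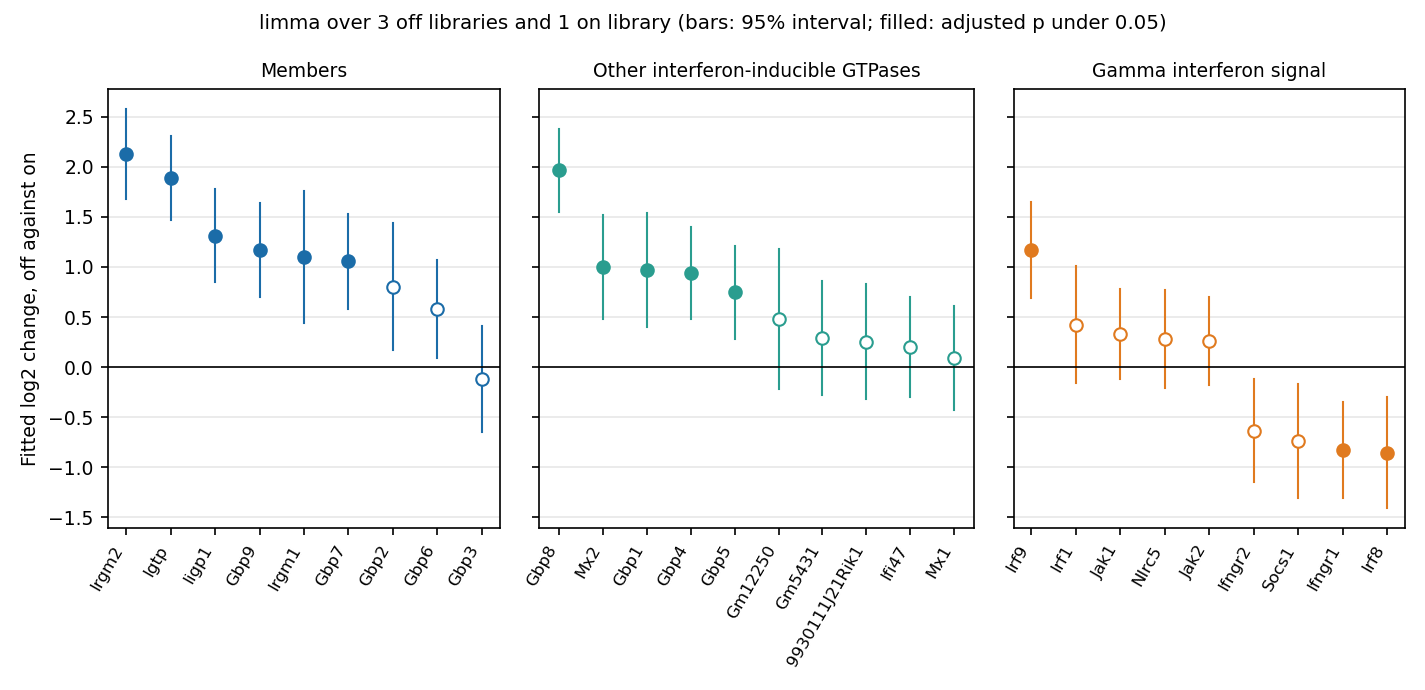
Fitted log2 change of off against on (y) from limma over 3 off libraries and 1 on library. Genes (x) are the 9 members, 10 other interferon-inducible GTPases and 9 genes of interferon signalling, in the panel titled gamma interferon signal. Bars are 95% intervals and filled points have an adjusted p under 0.05. Filled points are all above 0 among the GTPases, 6 of 9 and 5 of 10. Among the signal genes Irf9, a factor of the type I complex, is filled above 0, and Ifngr1 and Irf8 below 0.

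Other interferon targets came from a pair of lists, read beside the 11.8% of all genes that rose and the 15.1% that fell. Of 26 type I antiviral targets, 15 rose and none fell (limma, Benjamini-Hochberg), with a median of 1.33. Of these 26, 6 were under 1 FPKM in the on library and entered the test through off libraries, which favours a rise; of the other 20, 11 rose. Isg15, a ubiquitin-like modifier, had a fitted change of 3.04 and Rsad2, or viperin, 2.86. Of 21 genes often used as targets of gamma interferon, 1 rose and 4 fell, with a median of -0.26. The one that rose was the chemokine Ccl5 (1.44), and the immunoproteasome subunit Psmb8 (-1.36) and Serpina3g (-1.46), a serpin, were among those that fell. These lists share no gene with the 9 members. The difference between the lists was not tested.

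Genes for proteins that work with the GTPases are read beside the 11.8% of all genes that rose and the 15.1% that fell. Of 18 genes for autophagy conjugation and vacuole targeting, which load IRG and GBP proteins onto membranes, 5 rose and 2 fell (limma, Benjamini-Hochberg), with a median of -0.07. The adaptor Nbr1 rose by 0.81 and the Atg8 relative Gabarapl2 by 0.75, and both calls were lost without the 72 h library (limma, adjusted p = 0.101 and 0.156). Of 13 inflammasome genes, whose products act downstream of GBP proteins, 2 rose and 5 fell. The cytokine gene Il1b rose by 2.14, and the adaptor Pycard, or ASC, fell by 1.93 and the sensor Nlrp3 by 0.99, a call lost with the median change of all genes set to 0 (limma, adjusted p = 0.0549).

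Genes of other cell types were measured in the same libraries. Of all genes tested, 11.8% rose and 15.1% fell. Of 16 T and natural killer cell genes reaching 1 FPKM, 6 rose and 1 fell (limma, Benjamini-Hochberg), and the list's summed level went from 39.6 FPKM on to 57.8 to 74.4 FPKM off. Ncr1, a receptor of natural killer cells, which make gamma interferon, rose from 0.740 FPKM to 2.87, 3.36 and 3.31 FPKM. Ncr1 and 5 others of the 16 were under 1 FPKM in the on library and entered through off libraries; of the other 10, 3 rose and 1 fell. Cd3d was at 3.93 FPKM on and 7.68 to 14.4 FPKM off, while Cd3e was listed at 0 on and reached at most 0.146 FPKM off. The B cell factor Pax5 was listed at 0 in every library, and the B cell list summed to 20.5 FPKM on and 8.89 to 10.5 FPKM off. Of 11 dendritic cell genes 4 rose and 0 fell, with summed levels of 99.2 FPKM on and 112 to 127 FPKM off. The largest change was that of Clec9a, a receptor of cross-presenting dendritic cells (1.95). The median fitted change of this list was 0.03, and Tcf4 and Zbtb46 were lower in every off library than in the on library. Of 14 macrophage genes 5 rose and 0 fell, with sums of 391 FPKM on and 544 to 590 FPKM off. Of 11 endothelial genes 3 rose and 1 fell, with sums of 134 FPKM on and 151 to 160 FPKM off. Under 1 FPKM in the on library, and entered through off libraries, were 2 dendritic, 1 macrophage and 1 endothelial gene. Of the others, 3 of 9 dendritic, 4 of 13 macrophage and 2 of 10 endothelial genes rose. Of 19 myeloid leukaemia genes 7 fell and 3 rose, and their sum went from 5286 FPKM to between 2011 and 3270 FPKM. The part of any of these cell types, or of the erythroid genes above, in the GTPase levels was not tested.

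The genes closest to the set in pattern were found by the distance between centred log2(FPKM + 1) profiles over the 4 libraries, among 8958 other genes reaching 5 FPKM. In order, they were BC006779 (distance 0.0732), Irf9 (0.0751), the mitochondrial folate enzyme Mthfd2 (0.0781), Xcr1, a chemokine receptor of cross-presenting dendritic cells (0.0829), Kdr, the endothelial growth factor receptor (0.0900), and the lectin Clec2d (0.102). Mthfd2, for example, had 32.5 FPKM on, then 78.2, 65.0 and 75.2 FPKM off. Each of these 6 had its lowest off level at 72 h and its highest at 48 h. Choosing genes by their distance to the members' mean profile favours such a shared order. All these profiles come from the same 4 libraries, so the likeness is a description only.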

How the data were processed

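RNA from 4 libraries, 1 on and 1 each at 48 h, 72 h and 96 h off, was sequenced. The authors deposited FPKM in 4 tables of 23235 genes, made with TopHat2 2.0.4 and Cuffdiff on mm9, per the submitters' processing notes. The annotation, the length of the reads and whether strand was used are not stated in those notes. The 0 h column of each table was read as the on library. Each table was scaled separately, and the on columns of the 72 h and 96 h tables lay within 0.1% of that of the 48 h table for at least 99.9% of values after factors of 1.053 and 1.056. Levels, and the limma fit, use that common scale, while changes at single times were computed within each table (at most 0.0272 apart for the members). FPKM hold no counts and depth is unknown. The worth of 1 read was estimated from the steps of low values and GENCODE M21 transcript lengths. For a transcript of 1 kilobase it was about 0.0589 FPKM in the on library, and less in proportion for a longer one. At 48 h, 72 h and 96 h it was 0.873, 0.963 and 0.843 times that. The read numbers given are estimates from this and carry no interval.

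Tests on log2(FPKM + 1) used limma 3.58.1 in R 4.3.3, with statmod 1.5.0, for genes reaching 1 FPKM in at least 1 library, with eBayes trend and robust settings, two-sided, and Benjamini-Hochberg adjustment over all genes at 0.05; the function was tested on simulated data. Other choices tried were pseudocounts of 0.1 and 5 FPKM, no minimum, the median change set to 0, a 1.5-fold threshold, plain eBayes, each off library left out and the combined off column, a value the authors made. Sharing of 50-base stretches was counted in GENCODE M21 transcripts. Motifs were searched on both strands in RefSeq promoters. The members, the 14 gene lists (246 of 252 entries matched) and the rules for naming genes were chosen with earlier results of these data known. The rules named all members and all other GTPases, ligands above 0, 9 signal genes (a further one is not reported here), the 3 largest changes of any other list and the 6 genes nearest in pattern. Ptprc, Mpo, Nras, Cd3e, Pax5, Ifnb1, Irf7 and Usp18 were named outside the rule, after their values were seen.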

Additional observations from a re-analysis of the deposited data

Results flagged for a closer look

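Gbp3 and 4 genes of the related list changed in opposite directions at different times; the differences between times were not tested, each time has 1 library, and all share the on library. The change of Gbp3 at 48 h exceeded that at 72 h by 0.479 on the log2 scale. For Ifi47 the 96 h change exceeded the 72 h change by 0.446, and for Mx1 the 48 h change exceeded the 72 h change by 0.489. Gm5431 was higher at 48 h and just below its on level at 96 h, a gap of 0.655. For 9930111J21Rik1 the gap between 72 h and 96 h was 0.554. None of the 5 passed the limma test over the 3 off libraries (Benjamini-Hochberg adjusted p from 0.408 to 0.782).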

How the results depend on the processing

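The limma results of the 9 members were recomputed under 8 other settings, giving 72 values: 63 kept their direction and side of the threshold, 6 no longer passed, 3 newly passed and 0 changed direction. The combined off value, which has no test, moved each of the 9 by less than the spread between times. The 6 losses all came with no minimum on low values, where 23235 genes were tested and 0 members, and 4 of all genes, were higher and 277 lower; the cause was not tested. The 3 gains were Gbp2 and Gbp6 without the 72 h library and Gbp6 with a pseudocount of 0.1 FPKM. A fit without 1 off library holds 3 libraries, so its p-values lean on variance borrowed from all genes. Calls gained or lost in such fits may reflect that as well as the library left out. Leaving out each off library gave 6 to 8 members higher and 1134 to 1878 genes higher in all. With a pseudocount of 5 FPKM, members at least 2-fold higher numbered 3, 2 and 3 at 48 h, 72 h and 96 h, and all genes 281, 385 and 446. With 0.1 FPKM all genes numbered 969 at 48 h and 1205 at 72 h, and members 8, 5 and 7 at the 3 times. A 1.5-fold threshold gave 1432, 1761 and 1865 genes. Setting the median change of genes expressed in both libraries (-0.15, -0.09 and -0.07) to 0 left the members' counts at 7, 4 and 6, and changed the split of all genes from 587 higher and 569 lower to 811 and 395 at 48 h, from 776 and 676 to 906 and 539 at 72 h, and from 867 and 957 to 988 and 805 at 96 h. In limma the split went from 1415 and 1814 to 1735 and 1241. Leaving out each off library gave Mx1 changes between -0.051 and 0.19 (limma), below 0 without the 48 h library. No paired analysis was possible because each group holds 1 library. Depth limits Gbp6 most.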

Other observations

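The response element core was also searched in the related GTPases. The promoter table held 10 of them, of which 6 had GAAANNGAAA and 5 had TTCNNNGAA in the 250 bases before the start. Those with the response element core were Gbp2b, Gbp5, Gm12185, Gm12250, Tgtp1 and Tgtp2. In Tgtp1, Tgtp2 and Gm12185 2 bases lie between the gamma activated site core and the response element core, the same spacing as in Irgm2 and Igtp. Tgtp1 and Tgtp2 stayed under 1 FPKM in all 4 libraries. Ifi47, Gm5431, 9930111J21Rik1 and 9930111J21Rik2 had neither motif in this window. Ifi47, Gm5431 and 9930111J21Rik1, and also Gm12250, which had both motifs, did not pass the limma test.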
